A study of Mus musculus with 8 samples.

Results

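A set of 7 genes of the neutrophil compartment was followed across the distal colon libraries: the calprotectin subunits S100a8 and S100a9, the lipocalin Lcn2, the granule protein gene Ngp, the stefin gene Stfa2, the cytokine gene Csf3 and its receptor gene Csf3r. They were the 7 listed symbols of 15859 genes in the count table, and they were chosen by their difference between WT and Hsf1 null colon at day 15, so that difference is described here without a test. The 8 libraries came from 8 male mice on a BALB/c x 129SvEV background, 2 per group. Hsf1 null mice lacked the heat shock transcription factor gene Hsf1 in the whole body, and WT mice carried it. The day 0 groups, WT and Hsf1 null, received no treatment and were age matched. The day 15 groups, WT and Hsf1 null, were injected intraperitoneally with 10 mg/kg of the carcinogen azoxymethane (AOM) at 8 weeks of age and drank 1.5% dextran sulfate sodium (DSS), an irritant that injures the colon lining, for 5 days from day 7. All mice were labelled as 10 weeks old. The titles place the treated mice at day 15, while the treatment text ends when DSS ends, so days without DSS before collection are known from the study's methods only. With loss of Hsf1 in every cell, changes in colon tissue and in blood-derived cells cannot be told apart.

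Neutrophils are made in the bone marrow and enter tissue after injury. Granulocyte colony-stimulating factor (G-CSF, from Csf3) is secreted by stromal, epithelial and myeloid cells, binds the receptor encoded by Csf3r on the neutrophil lineage and drives the output of neutrophils. S100a8 and S100a9 form calprotectin, the main cytosolic protein of neutrophils, which binds zinc and calcium and is measured in stool as a sign of intestinal inflammation. Lcn2 binds iron-loaded bacterial siderophores and is made by neutrophils and by inflamed epithelium, Ngp is a cathelin-like protein of the specific granules, and Stfa2 is a cysteine protease inhibitor of the stefin A cluster.

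The genes lie on separate chromosomes apart from the calprotectin pair, in GRCm38 coordinates of GENCODE M21. S100a8 (ENSMUSG00000056054, chromosome 3, 90668978 to 90670035, plus strand) and S100a9 (ENSMUSG00000056071, chromosome 3, 90692632 to 90695721, minus strand) are separated by 22596 bases. Lcn2 (ENSMUSG00000026822) lies on chromosome 2 from 32384633 to 32388252, minus strand. Ngp (ENSMUSG00000032484) lies on chromosome 9 from 110419747 to 110423012, plus strand. Stfa2 (ENSMUSG00000022902) lies on chromosome 16 from 36403992 to 36408457, minus strand. Csf3 (ENSMUSG00000038067) lies on chromosome 11 from 98701263 to 98703629, plus strand. Csf3r (ENSMUSG00000028859) lies on chromosome 4 from 126024550 to 126044440, plus strand.

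Because the genes moved together, the DNA before 3 of their start sites is shown, from RefSeq (GRCm38.p6), read 5′ to 3′ on the strand of the gene and ending where the first annotated exon begins. S100a8 and S100a9 are shown as the 2 subunit genes of calprotectin and Ngp as the granule gene. Capitals mark TTGCNNAA, which stands for the C/EBP consensus, or GAGGAA, a PU.1-type core, on either strand.
S100a8, chr3:90668821-90668977, plus strand: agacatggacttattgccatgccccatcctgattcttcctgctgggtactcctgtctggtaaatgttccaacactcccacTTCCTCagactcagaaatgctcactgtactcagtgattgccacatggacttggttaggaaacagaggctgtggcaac
S100a9, chr3:90695722-90695971, minus strand: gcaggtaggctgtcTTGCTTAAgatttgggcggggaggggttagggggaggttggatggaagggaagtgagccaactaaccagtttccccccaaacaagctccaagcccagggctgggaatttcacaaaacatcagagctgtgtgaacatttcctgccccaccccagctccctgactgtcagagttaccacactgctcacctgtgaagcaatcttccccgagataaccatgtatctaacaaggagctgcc
Ngp, chr9:110419558-110419746, plus strand: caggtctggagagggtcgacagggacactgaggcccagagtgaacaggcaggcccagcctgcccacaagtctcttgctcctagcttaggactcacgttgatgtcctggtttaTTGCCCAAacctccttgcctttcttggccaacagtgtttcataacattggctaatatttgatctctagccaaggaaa

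Promoter windows of 300 bases, 250 before and 50 after the RefSeq start, were found for 6 of the 7 genes, all but Csf3. The C/EBP letters TTGCNNAA were present in 3 of the 6, S100a9 (first base at -236 from the start), Lcn2 (-216) and Ngp (-138 and -11), against 10.8% of 32851 mouse promoters. The PU.1 letters GAGGAA were present in 4 of the 6, S100a8 (-170 and -36), Lcn2 (-20), Stfa2 (-82) and Csf3r (-86), against 28.3% of all promoters. The NF-kappaB letters GGANNTTCC were found once, in Csf3r (-129), against 4.26% of all promoters. The STAT letters TTCNNNGAA, held by 8.3% of all promoters, and the heat shock element letters GAANNTTC, held by 7.86%, were in none of the 6 windows. All motifs were read on both strands, and the C/EBP and PU.1 letters did not overlap in these windows. A match is a description of the letters and not a bound site.

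Total counts ranged from 2553348 to 12440257 per library, and the second mouse of each day 0 group was the shallow one, with 2553348 counts in WT and 2675976 in Hsf1 null. Hsf1 itself stood at 36.5 to 50.5 CPM (counts per 1000000, scaled by TMM, a correction for library composition) in the 4 WT mice and at 9.09 to 13.96 CPM in the 4 null mice, so the groups followed their labels and the null libraries still held Hsf1 reads. Of the defining neutrophil markers, Ly6g and Elane had no row in the table, Mpo stayed between 0.0 and 0.79 CPM in all 8 mice, and Cxcr2, the chemokine receptor of mature neutrophils, reached 0.96 and 9.08 CPM in the WT day 15 mice against 0.0 to 1.2 CPM in the other 6. In bulk tissue, more neutrophils and more RNA per cell cannot be told apart. The study's methods describe the WT mice as littermates of the null mice, and which mice came from 1 litter is not given in the sources used here; p-values measure the spread between these mice.

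The ligand gene Csf3 was detected in treated WT colon and almost nowhere else. It gave 73 and 140 counts in the WT day 15 mice (6.35 and 14.8 CPM), 0 and 1 counts in the null day 15 mice, and 0 counts in all 4 untreated mice. The groups did not overlap. Pooled over the mice of a group, the WT to null ratio at day 15 was 141, with an exact 95% interval of 25.1 to 5614 that covers counting error only. Against untreated WT colon, where no count allows up to 3 counts over the group, Csf3 was at least 43.1-fold higher at day 15.

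The receptor gene Csf3r was counted in every group, with a wide spread between the mice of a group. It stood at 14.7 and 39.2 CPM in the WT day 15 mice, at 0.62 and 8.83 CPM in the null day 15 mice, at 8.53 and 1.99 CPM in untreated WT mice and at 2.87 and 1.44 CPM in untreated null mice. The 2 treated WT mice were the highest of the 8, but the lower of them was closer to the higher treated null mouse and to the higher untreated WT mouse than to its own group partner. The fitted log2 difference between WT and null at day 15 was 2.49 ± 0.94 (SE). It was 5.403 without the second null day 15 mouse, 1.60 without the first null day 15 mouse and 1.62 without the second WT day 15 mouse.

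Csf3r also marked a spread that lymphocyte genes and some lists of neutrophil genes shared. The summed level of 11 lymphocyte markers was 504 and 1015 CPM in the WT day 15 mice, 221 and 282 CPM in the null day 15 mice, 243 and 63.5 CPM in untreated WT mice and 123 and 27.3 CPM in untreated null mice. In each of the 4 groups the mouse with more Csf3r also had the larger lymphocyte sum. The sums of specific and gelatinase granule genes and of signals that recruit neutrophils, members left out, had the same order in all 4 groups. The sum of surface and cytosolic neutrophil genes had the reverse order in untreated WT and in treated null mice. The part of lymphocytes or of neutrophils in the Csf3r values was not tested. Across the 8 mice, the Pearson correlation of Csf3r with the mean of the other 6 genes, each scaled on log2 CPM, was 0.82, while each of the other 6 genes had a correlation of 0.961 or more with the mean of the rest. These correlations describe 8 points of which the 2 treated WT mice stand apart, and they carry no test.

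Of the calprotectin genes S100a9 was the higher. S100a9 stood at 54.5 and 297 CPM in the WT day 15 mice, 3.10 and 8.56 CPM in the null day 15 mice, 1.18 and 0.79 CPM in untreated WT mice and 0.66 and 1.80 CPM in untreated null mice. Both treated WT mice were above every other mouse, and both treated null mice were above all 4 untreated mice. The fitted log2 difference between WT and null at day 15 was 4.89 ± 0.79 (SE), a 29.8-fold difference, and it was 3.21 without the second WT mouse and 5.82 without the second null mouse.

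S100a8 followed at a lower level, with 265 and 682 counts in the WT day 15 mice (23.1 and 72.0 CPM) against 0 and 9 counts in the null day 15 mice (0.0 and 1.2 CPM). Untreated WT mice gave 3 and 1 counts and untreated null mice 2 and 0. The fitted log2 difference at day 15 was 6.20 ± 0.91 (SE), and it was 5.16 without the second WT mouse and 5.27 without the first null mouse. Without the second null mouse the null group held no S100a8 count, so no fitted difference is given. The subunits did not keep a fixed ratio: S100a9 gave 2.37 counts per S100a8 count in the first treated WT mouse, 4.12 in the second and 7.11 in the one treated null mouse with S100a8 reads, the last resting on 9 counts.

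Lcn2 showed the same separation from a base that was measurable in every mouse. It stood at 78.6 and 347 CPM in the WT day 15 mice, 4.34 and 8.29 CPM in the null day 15 mice, 2.35 and 3.57 CPM in untreated WT mice and 3.45 and 2.87 CPM in untreated null mice. Both treated null mice were above all 4 untreated mice. The fitted log2 difference between WT and null at day 15 was 5.06 ± 0.67 (SE), a 33.4-fold difference. It was 3.63 without the second WT mouse and 5.77 without the first.

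The granule gene Ngp was counted in the 2 treated WT mice and in no other mouse. They gave 132 and 271 counts (11.5 and 28.6 CPM), and the other 6 mice gave 0. Pooled over the group, Ngp was at least 89.2-fold higher in WT than in null colon at day 15, and at least 81.5-fold higher than in untreated WT colon. Both bounds set the empty group at 3 counts, and they state counting limits only.

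Stfa2 gave 32 and 114 counts in the WT day 15 mice (2.78 and 12.04 CPM), 1 and 1 in the null day 15 mice, 0 and 0 in untreated WT mice and 2 and 0 in untreated null mice. The pooled WT to null ratio at day 15 was 48.5, with an exact 95% counting interval of 13.2 to 404, and treated WT colon was at least 29.5-fold above untreated WT colon. Stfa2 shares sequence with its relatives: of the 50-base windows in its annotated transcripts, 15.9% occur in transcripts of other genes, 14.7% in Stfa2l1, so reads could be divided between them. The other members shared none of their windows, apart from Csf3r at 10.5%, mainly with the model AC105061.2 (8.84%).

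**Figure D1:**
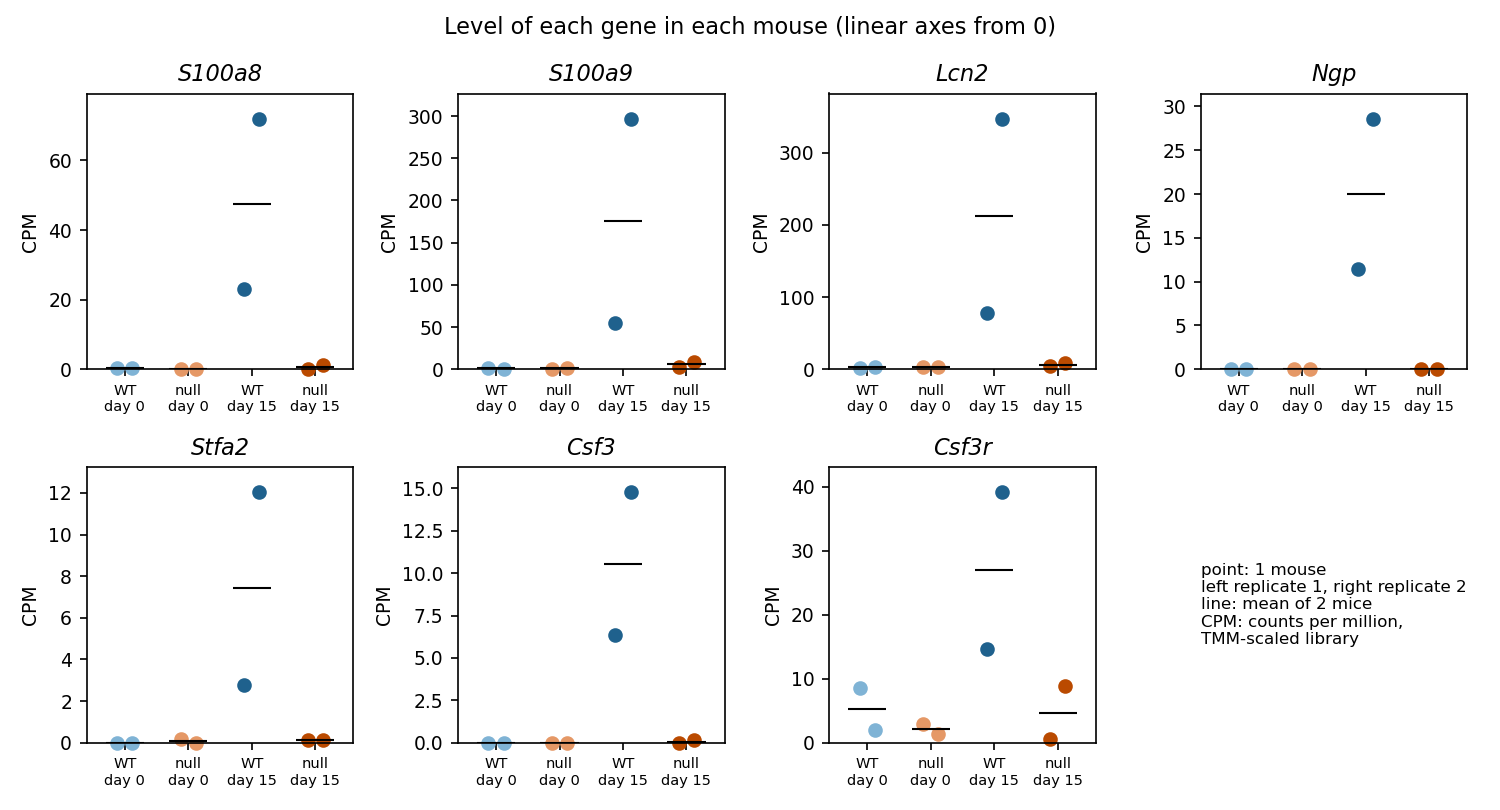
Level of each of the 7 genes in each mouse, in counts per 1000000 (CPM) on linear axes from 0, by genotype and day; each point is 1 mouse and each line the mean of the 2 mice of a group. The 2 WT day 15 mice are the highest of the 8 in every panel, the second above the first, and Csf3r, S100a9 and Lcn2 lie above 0 in every mouse.

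In all 7 genes both treated WT mice lay above both treated null mice, which holds for 28.6% of the 14371 genes tested; since these genes were chosen on that contrast, the count is a description. All 7 were also higher in the second treated WT mouse than in the first, by 2.33-fold for Csf3, 2.49-fold for Ngp, 2.67-fold for Csf3r, 3.12-fold for S100a8, 4.33-fold for Stfa2, 4.42-fold for Lcn2 and 5.45-fold for S100a9. Among all genes tested, 50.4% were higher in the second mouse. The 7 genes together took 0.0198% of the counts in the first treated WT mouse and 0.083% in the second, against 0.000635 to 0.00267% in the other 6 mice. All 7 passed the filter on low counts, S100a8, Ngp, Csf3 and Stfa2 only through the treated WT mice.

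Set against each other per kilobase of transcript, the genes kept nearly 1 order in both treated WT mice. S100a9 was first with 105 and 572 CPM per kilobase, followed by Lcn2 (85.8 and 380) and S100a8 (47.4 and 148). Ngp (9.40 and 23.4) and Stfa2 (5.91 and 25.6) came next, and Csf3 (4.49 and 10.5) and Csf3r (4.22 and 11.3) were last. Neighbours in this order overlapped between mice throughout, except that S100a8 lay above Ngp and Stfa2 in every pairing of mice. In the null day 15 mice the order began with S100a9 (5.98 and 16.5 CPM per kilobase) and Lcn2 (4.75 and 9.06) as well.

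**Figure D2:**
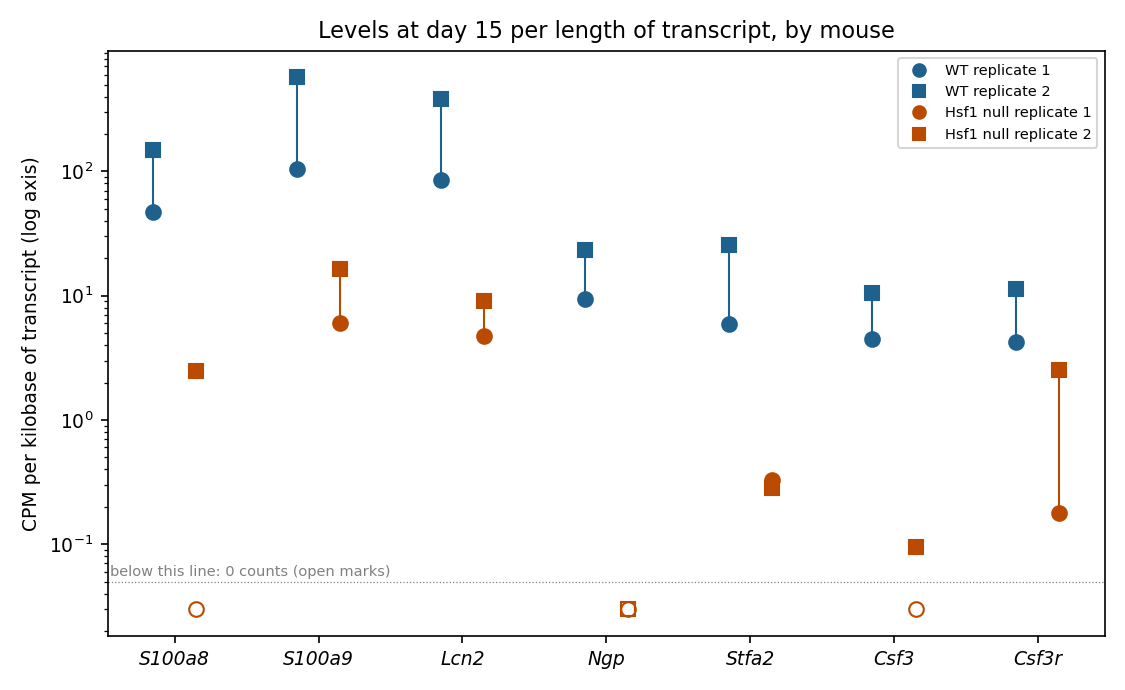
Day 15 levels of the 7 genes in CPM per kilobase of transcript on a log axis, by mouse (circle: replicate 1, square: replicate 2; blue: WT, orange: Hsf1 null; open marks below the dotted line: 0 counts). Every blue mark lies above the orange marks of the same gene, and S100a9, Lcn2 and S100a8 stand highest in WT.

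Before treatment no difference between the genotypes was detectable in the genes with enough reads. By edgeR's quasi-likelihood test with Benjamini-Hochberg adjustment over 14371 genes, the log2 difference of WT minus null at day 0 was 0.19 ± 1.21 (SE, adjusted p = 0.98) for S100a9. It was -0.25 ± 0.78 (adjusted p = 0.965) for Lcn2 and 1.29 ± 1.01 (adjusted p = 0.85) for Csf3r in the same test. The signs for S100a9, Lcn2 and Csf3r turned when the first untreated WT mouse was left out. Ngp and Csf3 had no count in any untreated mouse, Stfa2 had 2 and S100a8 had 4 in WT and 2 in null, and since these 4 genes passed the filter only through the treated WT mice, no test is given for them at day 0. Over all genes, 0.0% were called at day 0, where called means an adjusted p below 0.05 with a change of more than 2-fold; 904 genes (6.29%) had an unadjusted p below 0.05, and DESeq2 called 12 higher (0.0835%) and 6 lower (0.0418%) in WT, 0.125% in all.

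From day 0 to day 15 the fitted changes of the members were larger in WT than in null colon. In WT the fitted log2 change was 7.15 ± 1.04 (SE) for S100a8, 7.33 ± 0.96 for S100a9, 6.27 ± 0.75 for Lcn2 and 2.21 ± 0.94 for Csf3r. In null mice the values were 2.15 ± 1.49 for S100a8, 2.62 ± 0.99 for S100a9, 0.96 ± 0.69 for Lcn2 and 1.02 ± 1.01 for Csf3r. Ngp had no count in null colon at either day, and Csf3 and Stfa2 had at most 2 counts per group there. The changes in both genotypes share the day 15 mice, WT and null, on which the genes were chosen, so neither these changes nor their difference was tested.

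The other genes of the same biology were tested, from 8 lists of 149 genes, of which 121 had a row and 109 passed the filter. At day 15, 15 of the 109 were called higher in WT, where 1.25% of all genes tested were, and 1 was called lower, where 1.91% were. These and the following calls are those of edgeR unless DESeq2 is named. DESeq2 called 34 of the 109 at day 15, where it called 3.83% of all genes tested higher and 4.5% lower. Of the 109, 16 passed the filter on low counts only through the treated WT mice, so that a difference there was built in, and 4 of the 15 called higher were among them, Chil3, Ltf, Hdc and Cxcl2. Without these 16, an alternative chosen after seeing the data, the median of the other 93 was 0.96, with 11 called higher and 1 lower. The median log2 difference of the 109 was 1.24, beside 0.03 for all genes tested. The number called was sensitive to single mice: it fell from 16 to 1 without either untreated null mouse or without the first treated null mouse, and to 2 without the second treated WT mouse. Socs3 was the gene called under all 16 alternatives.

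Of 13 other tested genes of specific and gelatinase granules, 3 were called higher in treated WT colon and none lower by edgeR, and the median log2 difference was 1.66, or 0.92 with 1 called for the 9 that passed the filter without the treated WT mice. Of the 13, 11 had a positive and 2 a negative difference, Cd177 (-0.17 ± 0.33) and Padi4 (-0.35 ± 0.36), both named after their values were seen. Chil3, a chitinase-like lectin of myeloid cells, stood at 9.22 and 4.22 CPM in WT against 0.0 and 0.27 in null, a pooled ratio of 48.5 (95% counting interval 13.2 to 404). Ltf, the iron-binding granule protein lactotransferrin, stood at 7.22 and 6.02 CPM against 0.47 and 0.53 (log2 difference 3.68 ± 0.65, edgeR adjusted p = 0.024), and Hp, the haemoglobin-binding haptoglobin, at 90.8 and 98.3 CPM against 5.12 and 11.6 (3.49 ± 0.54, adjusted p = 0.0188). Unlike the 7 members, Chil3 and Ltf were higher in the first treated WT mouse than in the second. The azurophil granule list had 1 testable gene, Ctsc, the protease that activates granule serine proteases, which stood at 78.6 and 152 CPM in treated WT mice against 29.5 and 64.9 in treated null mice (log2 difference 1.29 ± 0.45, edgeR adjusted p = 0.128; unadjusted p below 0.05, and called by DESeq2).

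Of the tested relatives of Stfa2, 2 of 3 lay higher in treated WT colon, at low counts. Stfa2l1 stood at 1.22 and 6.65 CPM in treated WT mice, 0.0 and 0.13 in treated null mice and 0.0 in all 4 untreated mice. BC100530, another stefin A gene, stood at 1.22 and 5.70 CPM in treated WT mice and at 0.0 in both treated null mice. Csta1, at 5.31 and 8.03 against 6.20 and 8.43 CPM, did not separate. None of the 3 was called at day 15 by edgeR or DESeq2, and 2, Stfa2l1 and BC100530, had an unadjusted p below 0.05. Both passed the filter on low counts only through the treated WT mice, so that their difference was built in. Without them only Csta1 was left, with a log2 difference of -0.14 ± 0.45.

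Surface and cytosolic neutrophil genes had a positive WT minus null difference in 31 of 32 cases, where 52.1% of all genes tested had one. Their median log2 difference was 1.93, or 1.71 for the 27 that passed the filter without the treated WT mice, and edgeR called 4, all upward, while DESeq2 called 14 higher and 1 lower. The lower gene was Mxd1, a transcriptional repressor, at 265 and 440 CPM in treated WT mice against 1118 and 523 CPM in treated null mice (log2 difference -1.22 ± 0.41, edgeR adjusted p = 0.116), named after its values were seen. At day 0, 23 of the 32 differences were positive, with a median of 0.56, where 50.8% of all genes tested had a positive difference. Retnlg, a resistin-like secreted protein, stood at 21.7 and 66.5 CPM in treated WT mice against 1.55 and 2.81 CPM in treated null mice (log2 difference 4.32 ± 0.68, edgeR adjusted p = 0.0198). Il1r2, the decoy receptor for interleukin 1, stood at 8.96 and 25.6 CPM against 0.62 and 2.27 CPM (3.54 ± 0.72, adjusted p = 0.0342). Lrg1 and Hdc, the histamine-forming decarboxylase, were the other two, at 3.40 ± 0.61 (adjusted p = 0.0242) and 3.32 ± 0.73 (adjusted p = 0.0442) on the log2 scale. Cxcr2 was not called (log2 difference 2.20 ± 1.00, adjusted p = 0.218). Of the 34 genes of this list with a row, 31 were higher in the second treated WT mouse than in the first, as all 7 members were.

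Signals that recruit neutrophils had a positive difference in 10 of 10 tested cases, where 52.1% of all genes tested had one. Their median log2 difference was 2.92, 7 had an unadjusted p below 0.05 (23.2% of all genes), and edgeR called 4 of the 10 and DESeq2 6. Cxcl2, Cxcl3, Il1a and Osm passed the filter on low counts only through the treated WT mice, so that their difference was built in. Of these, Cxcl2, Cxcl3 and Il1a were among the 7 with an unadjusted p below 0.05. The 6 that passed the filter without the treated WT mice were all positive, with a median of 2.66. Of these 6, edgeR called 3 and DESeq2 4. Before treatment 9 of the 10 differences were positive too, with a median of 1.40, 2 had an unadjusted p below 0.05, and neither tool called any. Cxcl5 stood at 48.2 and 136 CPM in treated WT mice against 1.24 and 10.2 CPM in treated null mice (log2 difference 3.99 ± 0.82, edgeR adjusted p = 0.0357), and Cxcl1 at 12.9 and 21.4 CPM against 0.47 and 1.87 CPM (3.83 ± 0.72, adjusted p = 0.0276). Both encode ligands of Cxcr2. Il1b, the inflammasome-processed cytokine, and Cxcl2, a further Cxcr2 ligand, were called as well, at 3.66 ± 0.83 (adjusted p = 0.046) and 2.98 ± 0.64 (adjusted p = 0.0414).

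Downstream of the G-CSF receptor, 4 of 22 genes were called higher, against 1.25% of all genes tested, and none lower. Their median log2 difference was 0.75, and 19 of the 22 were positive, where 52.1% of all genes tested were. Of the 3 negative differences the largest was that of Gfi1 (-1.36 ± 0.55, edgeR adjusted p = 0.175). At day 0, 19 of the 22 differences were already positive, with a median of 0.30, where 50.8% of all genes tested were positive. At that day 4 had an unadjusted p below 0.05 (6.29% of all genes), and none was called. Socs3, the feedback inhibitor that binds the activated receptor, stood at 89.9 and 133 CPM in treated WT mice, 11.5 and 12.7 CPM in treated null mice, 7.35 and 7.94 CPM in untreated WT mice and 3.37 and 6.11 CPM in untreated null mice. Its log2 difference at day 15 was 3.20 ± 0.34 (edgeR adjusted p = 0.00631). Lyn, a Src-family kinase, was higher in WT by 1.44 ± 0.33 (adjusted p = 0.0476), Cebpb, a transcription factor of emergency granulopoiesis, by 1.42 ± 0.33 (adjusted p = 0.0478) and Stat5b, a signal transducer, by 1.12 ± 0.23 (adjusted p = 0.0365), all on the log2 scale. Socs3 is also a target of other cytokine receptors that signal through STAT3.

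Receptors of calprotectin and other S100 genes had differences of both signs. Of 18 tested, edgeR called none higher and 1 lower in WT at day 15, 8 differences were positive, 4 had an unadjusted p below 0.05, and the median log2 difference was -0.16. DESeq2 called 1 higher, Emb, a calprotectin receptor (log2 difference 1.93 ± 0.53, edgeR adjusted p = 0.0734), and 1 lower. The gene called was S100g, a calcium-binding protein of absorptive epithelium, at 0.09 and 0.21 CPM in treated WT mice against 6.05 and 1.47 in treated null mice, 25.1-fold lower in WT (95% counting interval 8.11 to 126). Of 10 iron and lipocalin partners, none was called by edgeR or DESeq2, and 3 had an unadjusted p below 0.05; their median log2 difference was 0.68, or 0.33 with genes absent from a group set at their bound. Hamp, the iron hormone hepcidin, stood at 3.65 and 0.95 CPM in treated WT mice and at 0.0 in both treated null mice (edgeR adjusted p = 0.0702). It was among the 3, but it passed the filter on low counts only through the treated WT mice, so its difference was built in. The other 9 had a median of 0.66, with 5 positive and none called. Slc40a1, the iron exporter ferroportin, differed by -1.03 ± 0.41 (edgeR adjusted p = 0.171). Fth1 and Ftl1, the ferritin chains, and Tfrc, the transferrin receptor, differed by -0.08 ± 0.32, 0.69 ± 0.29 and -0.10 ± 0.37 on the log2 scale.

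**Figure D3:**
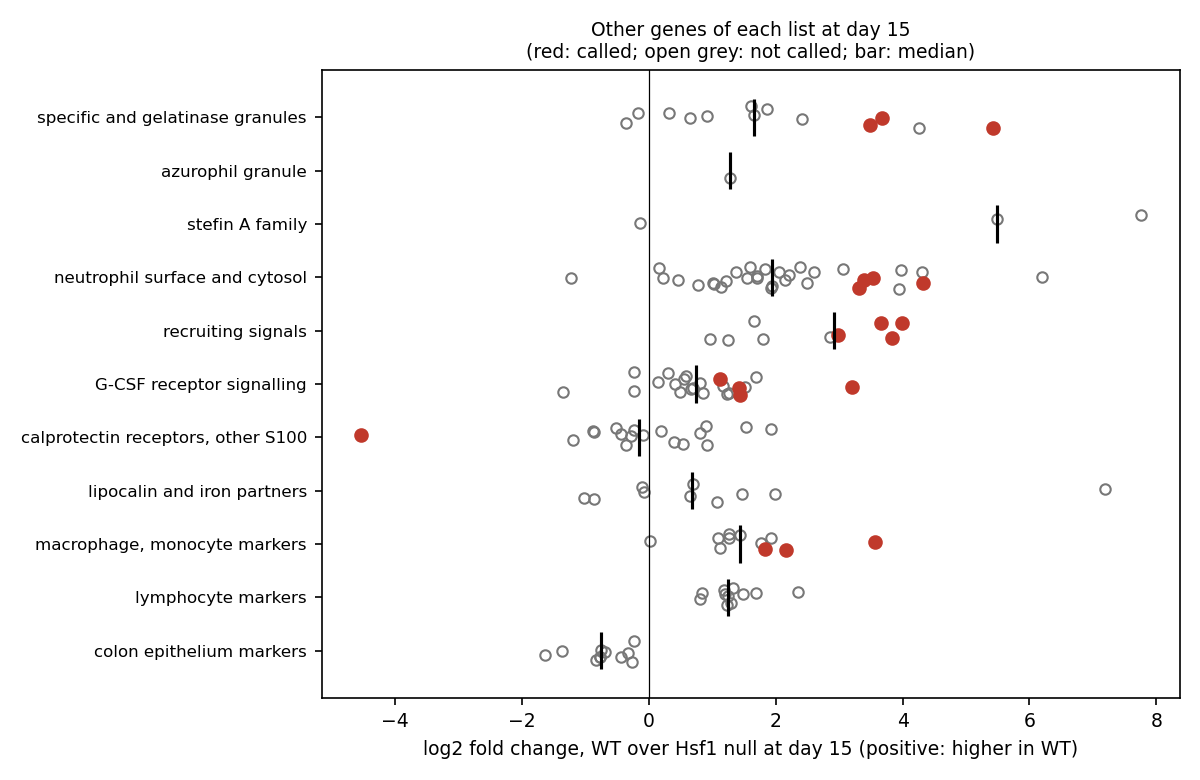
Log2 fold change of WT over Hsf1 null at day 15 for the tested genes of 8 pathway lists and 3 marker lists, members left out; red points were called, open points were not, and black bars are medians. The medians of the recruiting signals and of the granule and other neutrophil genes lie right of 0, with 2 of 13 granule genes and 1 of 32 surface and cytosolic genes left of it, the S100 and receptor list is centred near 0 and colon epithelium markers lie left of 0; fitted values of genes without counts in null mice have no upper limit.

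Markers of other cells differed at day 15 too. Of 11 macrophage and monocyte markers, 3 were called higher in WT, Ly6c2 (log2 difference 3.56 ± 0.46, edgeR adjusted p = 0.0137), C1qa (2.16 ± 0.31, adjusted p = 0.0137) and C1qb (1.83 ± 0.42, adjusted p = 0.0481), and the summed level was 986 to 1277 CPM in treated WT mice against 206 to 470 CPM in treated null mice. Ly6c2 stood in untreated WT mice at 27.8 and 27.4 CPM against 6.24 and 5.39 CPM in untreated null mice (log2 difference 2.22 ± 0.47, unadjusted p = 0.000792, edgeR adjusted p = 0.775), and its difference in change was 1.34 ± 0.63 (edgeR adjusted p = 0.606). DESeq2 called 5 macrophage and monocyte markers higher at day 15 and 1 at day 0. Adgre1, at 7.31 and 16.9 against 3.26 and 6.69 CPM, was not called. The 11 lymphocyte markers all had positive differences (median log2 difference 1.26, 5 with an unadjusted p below 0.05, none called by edgeR or DESeq2), and at day 0 all 11 differences were positive as well (median 0.96, 1 with an unadjusted p below 0.05, none called by either tool). The 11 colon epithelium markers all had negative differences (median -0.76, 2 with an unadjusted p below 0.05, none called by edgeR and 2 by DESeq2), with sums of 11037 to 14449 CPM in WT and 19679 to 25266 CPM in null. The part of these cells in the values of the 7 genes was not tested. Of squamous epithelium, another source of calprotectin, Krt5 and Trp63 had no row, Krt14 stood at 1.74 and 1.90 CPM in treated WT mice against 2.33 and 13.5 CPM in treated null mice, and the 8 genes with a row summed to 89.0 to 91.9 CPM in treated WT mice and 76.2 to 111 CPM in treated null mice. Krt13, a squamous keratin, stood at 3.74 and 10.24 CPM in treated WT mice against 1.40 and 4.41 CPM in treated null mice (log2 difference 1.25 ± 0.72, edgeR adjusted p = 0.324). Blood could not be judged from its main globin, since Hbb-bs had no row, and the 2 erythroid genes with a row summed to 0.93 to 3.74 CPM over the 8 mice. Eosinophil genes summed to 3.70 to 5.65 CPM in treated WT mice and 0.93 to 1.34 in treated null mice, and mast cell genes to 137 to 147 and 98.5 to 133 CPM, with none of either list called by edgeR or DESeq2 and 1 of 2 and 3 of 5 with an unadjusted p below 0.05.

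From day 0 to day 15 in WT colon, 27 of the 109 other genes were called higher, against 3.47% of all genes tested, and 4 were called lower, against 4.27%. Of these 31, 8 passed the filter on low counts only through 1 of the groups compared, Chil3, Ltf, Mmp8, Stfa2l1, Fpr1, Hdc and Cxcl2 through the treated and Lrp2 through the untreated WT mice, and without such genes 20 of 92 were called higher and 3 lower. Among granule genes 9 of 13 rose. The leading ones were Chil3, absent from untreated WT colon and at least 29.5-fold higher at day 15, Ltf (28.3-fold by pooled counts, 95% counting interval 9.49 to 139), Mmp8, a neutrophil collagenase (log2 change 4.44 ± 1.16, edgeR adjusted p = 0.045), and Hp (4.21 ± 0.57, adjusted p = 0.00654). Stfa2l1 rose at least 15.6-fold, though DESeq2 did not call it and 8 of 16 alternatives did. Of the surface and cytosolic genes 8 of 32 rose, led by Retnlg (6.59 ± 0.84, adjusted p = 0.00597), Fpr1, a formyl peptide receptor (81.9-fold by pooled counts, interval 14.5 to 3259), Fpr2 (4.75 ± 1.15, adjusted p = 0.0357) and Lrg1 (4.64 ± 0.66, adjusted p = 0.00739). Without the second untreated WT mouse the number called fell from 31 to 4, without the first to 15, without the second treated WT mouse to 6 and without the first untreated null mouse to 20.

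Recruiting signals rose in 5 of 10 cases in WT, led by Cxcl5 (5.65 ± 0.94, edgeR adjusted p = 0.0111), Cxcl2 (4.73 ± 0.78, adjusted p = 0.0111), Il1b (4.03 ± 0.87, adjusted p = 0.0265) and Cxcl1 (3.84 ± 0.75, adjusted p = 0.0184). Socs3 (3.87 ± 0.36, adjusted p = 0.00283) and Cebpb (1.53 ± 0.33, adjusted p = 0.0265) were the 2 of 22 receptor signalling genes called. Among calprotectin receptors and S100 genes, S100a11 (2.14 ± 0.46, adjusted p = 0.0265) and the lipopolysaccharide co-receptor gene Cd14 (1.53 ± 0.26, adjusted p = 0.0122) rose and S100g fell. Of 10 iron genes, 3 fell: Lrp2, an endocytic receptor for Lcn2, by pooled counts of 57 to 1 (not called by DESeq2, and called under 5 of 16 alternatives), Hamp2 (-3.02 ± 0.76, adjusted p = 0.0404) and Slc40a1 (-2.16 ± 0.42, adjusted p = 0.0185).

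In Hsf1 null colon 11 of the 109 genes were called higher from day 0 to day 15, against 5.3% of all genes tested, and 2 were called lower, against 6.48%. Granule genes were 4 of the 11, Cd177 (2.95 ± 0.36, edgeR adjusted p = 0.0123), Cyba (2.25 ± 0.43, adjusted p = 0.0169), Padi4 (2.06 ± 0.39, adjusted p = 0.0167) and Pglyrp1 (1.46 ± 0.37, adjusted p = 0.0343). All 4 were already measured in untreated colon, Pglyrp1 at 293 to 547 CPM and Cd177 at 89.1 to 333 CPM, whereas Ngp had no count in any untreated mouse. Retnlg (16.7-fold by pooled counts, 95% counting interval 4.24 to 144) and Lrg1 (2.30 ± 0.65, adjusted p = 0.0446) rose, as did Tnf (2.09 ± 0.55, adjusted p = 0.0377), Gfi1, a transcription factor of granulocyte maturation (2.60 ± 0.63, adjusted p = 0.0294), Socs3 (1.47 ± 0.36, adjusted p = 0.0318) and Tyk2 (1.07 ± 0.24, adjusted p = 0.0245). Among calprotectin receptors and S100 genes, S100a16 rose (1.39 ± 0.29, adjusted p = 0.0207), while S100g (-2.22 ± 0.63, adjusted p = 0.0454) and the lipopolysaccharide receptor gene Tlr4 (-1.89 ± 0.54, adjusted p = 0.0476) fell. The number called fell from 13 to 0 without the second untreated null mouse, to 2 without the second treated null mouse, to 6 without the first treated null mouse and to 8 without the first untreated null mouse.

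Markers of other cells moved between the days as well. Over all genes, DESeq2 called 6.04% higher and 6.05% lower in WT and 7.11% higher and 8.22% lower in null colon. Of 11 macrophage and monocyte markers edgeR called 4 higher in WT colon, C1qa (log2 change 2.03 ± 0.31, adjusted p = 0.00882), C1qc (1.93 ± 0.36, adjusted p = 0.0165), Ly6c2 (1.73 ± 0.43, adjusted p = 0.038) and C1qb (1.58 ± 0.42, adjusted p = 0.0477), and their summed level was 271 to 458 CPM in untreated and 986 to 1277 CPM in treated WT mice. DESeq2 called 7 of the 11 higher in WT colon, and 7 had an unadjusted p below 0.05 there. In null colon none of the 11 was called by edgeR and 2 by DESeq2, 2 had an unadjusted p below 0.05, and the sums were 196 to 266 and 206 to 470 CPM. The mast cell proteases Mcpt1 and Mcpt2 rose in both genotypes, by 3.09 ± 0.41 and 3.56 ± 0.56 in WT and by 4.44 ± 0.48 and 4.22 ± 0.61 in null colon on the log2 scale, while Kit fell in WT (-1.25 ± 0.25). All 11 lymphocyte markers had positive changes in both genotypes, as 50.2% of all genes tested did in WT and 52.1% in null colon, with a median log2 change of 2.05 in WT and 1.46 in null colon. An unadjusted p below 0.05 was found for 10 in WT, against 27.6% of all genes, and for 7 in null colon, against 32.6%. DESeq2 called 5 of them in WT and 2 in null colon, and edgeR 1 in each genotype, the T cell gene Cd3e, by 2.49 ± 0.50 in WT and 2.75 ± 0.52 in null colon. Slc26a3, a chloride exchanger of colon epithelium, changed by -3.63 ± 0.50 in WT and -3.27 ± 0.49 in null colon, and of the other 10 epithelium markers edgeR called 2, both in null colon, Car1 (-1.88 ± 0.49) and Cdx2 (1.22 ± 0.31). Of all 11 epithelium markers DESeq2 called 3 higher and 2 lower in null colon and 1 lower in WT. Krt13 rose in both, 85.0-fold by pooled counts in WT (95% counting interval 15.001 to 3379) and 45.1-fold in null colon (7.67 to 1824), and Krt14 rose in null colon (3.61 ± 0.99, edgeR adjusted p = 0.0422). The part of these cells in the values of the 7 genes was not tested.

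**Figure D4:**
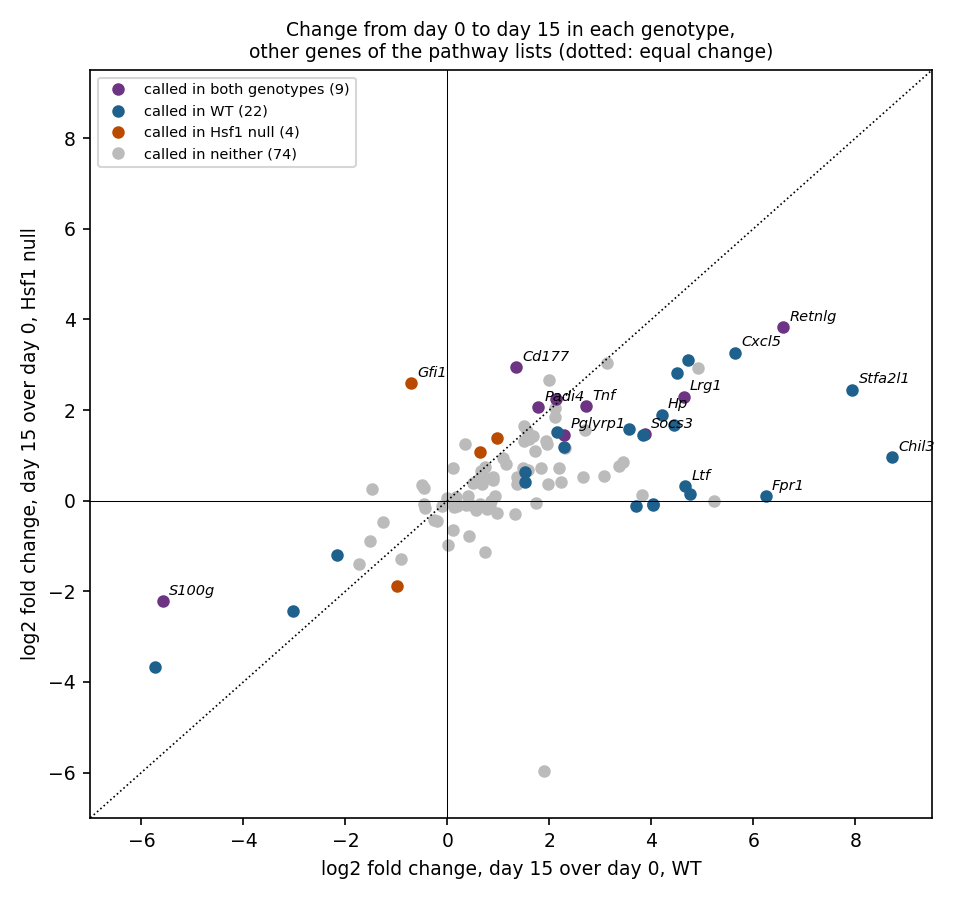
Log2 fold change from day 0 to day 15 in WT (horizontal axis) and in Hsf1 null colon (vertical axis) for the 109 tested genes of the pathway lists, members left out; the comparisons share no mice and the dotted line marks equal change. Colours mark calls, which fix where called genes can lie: 22 genes were called in WT colon and not in null colon, the 9 called in both include Retnlg, Lrg1, Tnf and Socs3, and fitted values of genes without counts in a group have no fixed size.

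Whether the change differed between genotypes was tested directly for the other genes. None of the 109 passed, where 0.00696% of all genes tested did (1 gene), 19 had an unadjusted p below 0.05, where 8.62% of all genes tested did, and DESeq2 called 2, Socs3 and Il1b, where it called 0.905% of all genes. Over all genes 49.8% had a positive difference in change, and of the 19, 15 had a positive and 4 a negative difference in change of WT minus null, Gfi1 (-3.32), Cd177 (-1.60), S100g (-3.37) and Mxd1 (-1.75). Among the 15, Ltf, Chil3, Fpr1 and Hamp passed the filter on low counts only through the treated WT mice, so that a positive difference was built in. No count without such genes was made for the difference in change. For Socs3 the log2 difference in change was 2.41 ± 0.50 (edgeR adjusted p = 0.273). Stat5b, which went from 42.9 and 45.3 to 62.6 and 67.4 CPM in WT mice and from 34.1 and 34.5 to 27.8 and 31.8 CPM in null mice, had a difference in change of 0.76 ± 0.33 (adjusted p = 0.57). At day 0 none of the 109 was called between genotypes, 12 had an unadjusted p below 0.05, and DESeq2 called 1, Cd177.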

How the data were processed

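RNA was extracted from distal colon, and poly(A) libraries were made with the SENSE mRNA-Seq V2 kit. The authors aligned the reads with STAR to mm10; the read counter and annotation were not given in the sources used here. The authors deposited raw counts per gene symbol for 15859 genes, each with at least 6 counts in 1 library, and the same counts divided by DESeq2 size factors, a normalized score with no fixed unit, whose mean above 5 served as the filter (14371 genes tested).

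Counts were fitted with edgeR 4.0.16 in R 4.3.3 (quasi-likelihood test, TMM scaling, 1 model of 4 groups, Benjamini-Hochberg adjustment). A gene was called at an adjusted p below 0.05 and an absolute log2 fold change above 1. The code was checked on simulated counts. CPM are counts per 1000000 counts, with TMM-scaled library sizes. Ratios against groups of 1 to 3 counts carry exact conditional (Clopper-Pearson) intervals, and groups without counts were set at 3 counts over the group. Intervals and bounds cover counting error only.

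The 7 members and the gene lists were chosen with earlier results of these data known. Of each list, at most 4 called genes were named per comparison, by size, or the most abundant where none was called, besides the markers Ly6g, Cxcr2, Mpo, Elane, Krt5, Krt14, Trp63, Adgre1 and Hbb-bs and the 8 genes most like the members. Genes named outside this rule were chosen after their values were seen. Transcript lengths are those of the longest principal GENCODE M21 transcript (GRCm38, the same assembly as mm10). Alternatives were DESeq2 1.42.0, its size factors, other filters, thinning to the smallest library, a replicate block, fits of only the groups compared, and leaving out each mouse.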

Additional observations from a re-analysis of the deposited data

How the results depend on the processing

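The number of other pathway genes called was the least stable result. DESeq2 called 34 at day 15, 47 from day 0 to day 15 in WT, 23 in Hsf1 null, 1 between genotypes at day 0 and 2 for the difference in change, against 16, 31, 13, 0 and 0 with edgeR; over all genes DESeq2 called 8.33% at day 15, 12.1% in WT and 15.3% in Hsf1 null. Thinning every library to the smallest gave 5 at day 15 and 8 in Hsf1 null, and fitting only the groups compared gave 1 at day 15 and 20 in WT. Leaving out 1 mouse at a time gave 1 to 24 at day 15, 0 to 1 at day 0, 4 to 46 in WT and 0 to 15 in Hsf1 null, and 0 for the difference in change. In leave-one-out fits a lone mouse was assumed to vary like the other groups. The causes were not tested.

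Same-numbered mice were different animals, and their deviations correlated at -0.29 to 0.148. With a replicate block the numbers were 13 at day 15, 27 in WT, 12 in Hsf1 null, 0 at day 0 and 0 for the difference. With the untreated WT numbers exchanged, an alternative chosen after seeing the data, the block gave 38 at day 15 and 51 in WT.

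Of 146 alternative values for the members, 124 moved by less than their error or kept their side of the threshold, 15 kept their sign and moved by more, 11 toward 0 and 4 away from it, and 7 changed sign, all at day 0. At day 15, leaving out 1 treated mouse put the lower bound of Ngp on the log2 scale at 5.37 to 7.05 (6.48 with all mice) and the log2 ratio of Stfa2 at 4.28 to 6.39 (5.60). Csf3 lay at 6.25 to 7.69 (7.14), or at a lower bound of 4.45 without the second null mouse. Thinning to the smallest library left no count of Ngp, Csf3 or Stfa2 in treated null mice, and their lower bounds were 4.86, 3.91 and 3.50, while S100a8 moved from 6.20 to 5.17. At day 0 the log2 difference of S100a9 turned to -0.17 with DESeq2, -0.73 thinned and -0.68 with the exchanged block, and it ranged from -0.73 to 0.70 when 1 mouse was left out. Leaving out 1 mouse moved Lcn2 between -0.49 and 0.13 and Csf3r between -0.25 and 1.9985, with the sign turned without the first WT mouse. Other scalings moved the median of all genes by less than 0.1 on the log2 scale. Depth limits every group in which a gene had no count, since no count allows up to 3.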

Other observations

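The 8 genes outside the set whose pattern over the 8 mice was most like the mean of the 7 members (log2 CPM with a pseudocount of 0.5, each gene scaled) were 1700066B19Rik (Pearson r = 0.998), Gml (0.996), Epha2 (0.981), Mmp8 (0.978), Stfa2l1 (0.977), Aldh3b1 (0.977), Dio2 (0.977) and Il1r2 (0.976). These values describe mainly how far the 2 treated WT mice stood from the other 6, and carry no test. Mmp8, the neutrophil collagenase, stood at 4.44 and 14.9 CPM in those mice and at 0.0 to 0.94 CPM in the others. Genes with a base level shared the pattern: Epha2, an ephrin receptor kinase of epithelium, stood at 54.9 and 88.8 CPM in treated WT mice and at 19.9 to 32.6 CPM in the other 6, and Aldh3b1, an aldehyde dehydrogenase, at 9.31 and 16.7 CPM against 5.03 to 6.82 CPM. Dio2, the thyroid hormone activating deiodinase, stood at 7.13 and 19.7 CPM against 0.36 to 1.87 CPM. In each of these genes the second treated WT mouse was the highest, as in the 7 members.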
